A study of Mus musculus with 4 samples.

Results

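This account covers 8 genes of the MHC class I peptide-loading pathway and the immunoproteasome, B2m, Tap1, Tap2, Tapbp, Psmb8, Psmb9, Psme1 and Calr, in mouse spinal cord. The genes were chosen with earlier results of these data known, and all their spots were then taken by symbol from the platform's clone annotation, whatever their values. They had 14 spots assigned to 1 gene, of 18511 such spots for 10225 genes and of 28704 spots on each array. Cord of female adults of the SJL/J strain with AT-EAE was studied beside cord of control mice of the same strain and sex. In AT-EAE, the adoptive-transfer form of experimental autoimmune encephalomyelitis, transferred myelin-reactive T cells cause inflammation of the cord. RNA came from 4 extracts per group, each a pool of the cords of 2 mice. Both channels of a cDNA array held extracts from one group, extracts 1 and 2 on array 1 and extracts 3 and 4 on array 2, so there were 2 arrays of AT-EAE cord and 2 of control cord. The sources used here do not give the age in weeks, the stage of disease or the treatment of the control mice.

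MHC class I molecules show peptides from inside the cell to CD8 T cells. The peptides are cut by the proteasome, pumped into the endoplasmic reticulum by the TAP transporter and fitted into the class I heavy chain, which needs the light chain beta-2 microglobulin to be stable. Interferon gamma raises most genes of this pathway and swaps catalytic subunits of the proteasome for those of the immunoproteasome. In healthy nervous tissue class I expression is low, and in inflamed cord it is induced on microglia, endothelium and other cells.

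Each deposited value was taken as the log2 ratio between the 2 extracts of an array. The sources used here do not give the base of the logarithm or the channel in the numerator, so folds hold only if the base is 2, and a sign has meaning only against other genes of the same array. Whether a gene was higher or lower in AT-EAE cord than in control cord cannot be read from such ratios. They do show whether the ratios of genes of a pathway go together on an array. With each pair of extracts on 1 array, a difference between extracts and an effect of the channels cannot be told apart. In these bulk extracts, fewer cells of a type and less RNA per cell cannot be told apart. Spots with a value were averaged for each gene, and the relative ratio is this average minus the array's median over all genes. For scale, the standard deviation between spots of the same gene was 0.24 and 0.36 on AT-EAE arrays 1 and 2 and 0.24 and 0.28 on control arrays 1 and 2. Every pair of extracts was measured on 1 array. Of all spots, 54.5% and 37.6% had a value on the AT-EAE arrays and 73.6% and 64.7% on the control arrays. Defining markers of cord were represented by ratios alone, such as those of the myelin genes Mbp and Cnp and the neurofilament genes Nefl and Nefm, which had values on all 4 arrays, so the tissue could not be checked by level. Of the T cell markers, Cd247 had values on all 4 arrays, and the spots of Cd4 and Ptprc had none.

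On chromosome 17 of the GRCm38.p6 assembly, Psmb9, Tap1, Psmb8 and Tap2 followed one another as neighbouring protein-coding genes, and Tapbp lay on the same chromosome. B2m lies on chromosome 2, Calr on chromosome 8 and Psme1 on chromosome 14. The 250 bases before the start site are shown for B2m, Psmb8 and Psmb9, because these genes lay on the same side of the median on every array. As described below, that side rests on small ratios on AT-EAE array 1, and in distance Psmb9 was no nearer to B2m than Psme1 was. Sequences are from RefSeq (GRCm38.p6), which gave a promoter for 7 of the 8 genes, and Tap2 was not matched. Capitals mark matches on either strand to GAAANNGAA (a core of interferon-stimulated response elements), the kappaB consensus or CCAAT.
B2m, chr2:122147437-122147686, plus strand: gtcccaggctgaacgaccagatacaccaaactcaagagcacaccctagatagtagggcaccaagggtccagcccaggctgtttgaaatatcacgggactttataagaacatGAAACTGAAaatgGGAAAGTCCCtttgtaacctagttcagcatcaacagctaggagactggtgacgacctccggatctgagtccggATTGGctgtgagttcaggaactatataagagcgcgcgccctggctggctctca
Psmb8, chr17:34197945-34198194, plus strand: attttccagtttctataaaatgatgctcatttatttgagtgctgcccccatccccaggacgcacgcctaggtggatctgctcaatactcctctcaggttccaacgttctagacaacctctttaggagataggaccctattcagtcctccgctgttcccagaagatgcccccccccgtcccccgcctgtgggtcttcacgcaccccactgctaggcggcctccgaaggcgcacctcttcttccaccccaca
Psmb9, chr17:34187331-34187580, minus strand: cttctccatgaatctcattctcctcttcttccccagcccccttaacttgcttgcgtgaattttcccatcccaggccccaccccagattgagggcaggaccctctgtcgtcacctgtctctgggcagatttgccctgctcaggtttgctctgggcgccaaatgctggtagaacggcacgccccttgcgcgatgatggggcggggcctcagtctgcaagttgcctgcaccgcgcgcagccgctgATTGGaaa

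The B2m window held GAAANNGAA on the forward strand at positions -139 to -131 from the start site. On the reverse strand it held the kappaB consensus at -126 to -117 and CCAAT at -53 to -49, and none of these matches overlapped. The Psmb9 window held CCAAT on the reverse strand at -8 to -4, and these letters were not found in the Psmb8 window, nor those of the other motifs. Psmb9 and Tap1 are transcribed away from each other, and their windows shared 225 bases. Among the windows of the 7 genes, GAAANNGAA was found in 1, the kappaB consensus in 2 (B2m and Calr) and CCAAT in 5. The CCAAT matches of Tap1 and Psmb9 are the same bases, in the shared part of their windows, and are counted for both genes. Over all 32851 promoter windows of the same length, the shares with these motifs were 7.13%, 7.25% and 33.9%. No motif was common to B2m, Psmb8 and Psmb9, and a match is a description of these letters alone.

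Values were present for 12 and 10 of the 14 spots on AT-EAE arrays 1 and 2 (85.7% and 71.4%), where 61.7% and 42.1% of all spots assigned to 1 gene had one. On control arrays 1 and 2, 12 and 11 of the 14 spots had a value (85.7% and 78.6%), where 80.9% and 72.9% of all such spots had one. The exact 95% binomial intervals of the members' shares ran from 57.2% to 98.2% and from 41.9% to 91.6% on the AT-EAE arrays, and from 57.2% to 98.2% and from 49.2% to 95.3% on the control arrays, so each share over all spots lay inside the members' interval. These intervals cover counting error only, and spots of 1 gene are not independent. Values on all 4 arrays were held by 9 of the 14 spots, against 39.9% of all such spots. The filter behind a missing value was not stated.

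**Figure D1:**
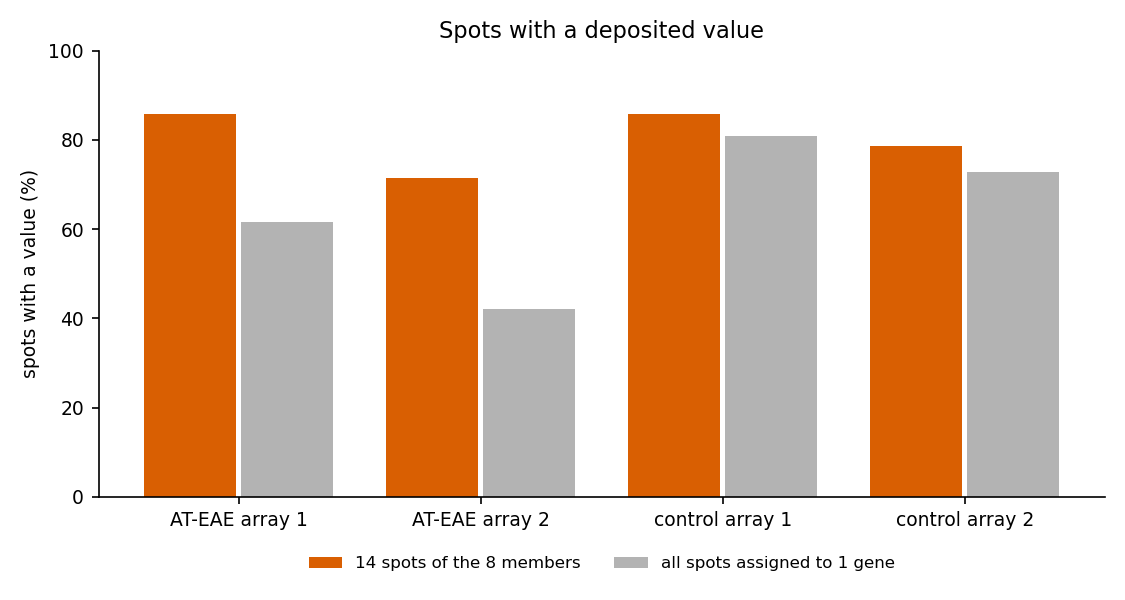
Percent of spots with a deposited value on each array (y axis), for the 14 spots of the 8 members (orange) and for all 18511 spots assigned to 1 gene (grey). The members' bars reach 85.7% and 71.4% for AT-EAE and 85.7% and 78.6% for control, and the grey bars at 61.7%, 42.1%, 80.9% and 72.9% in the same order.

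Spot by spot, the missing values lay in few places. The second spot of Tap1 and the first spot of Calr had no value on any array. Of the others, the first B2m spot and the single Tapbp spot lacked a value on AT-EAE array 2, and the first Tap1 spot lacked one on control array 2. Thus 6 genes, all but Tap1 and Tapbp, had a ratio on all 4 arrays. A further 3 spots listed B2m together with another gene and were not used for ratios.

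B2m encodes beta-2 microglobulin, the light chain of every class I molecule. Its 3 spots had deposited ratios of -0.05, 0.47 and -0.04 on AT-EAE array 1. The second and the third had 0.21 and 0.51 on AT-EAE array 2. On control array 1 they had 0.67, 0.53 and 0.49, and on control array 2 -0.15, -0.24 and -0.33. All spots with a value thus lay on one side on AT-EAE array 2 and on each control array, while AT-EAE array 1 had 1 high spot and 2 near 0. The relative ratio of the gene was 0.12 ± 0.30 (SD over 3 spots) and 0.43 ± 0.21 (SD over 2 spots) on AT-EAE arrays 1 and 2. On the control arrays it was 0.57 ± 0.09 and -0.25 ± 0.09 (SD over 3 spots each). On control array 1 B2m ranked 38 of 8818 genes from the top. With the median over spots in place of the mean, B2m turned to -0.05 on AT-EAE array 1.

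Psmb8 (LMP7) and Psmb9 (LMP2) encode catalytic subunits that replace Psmb5 and Psmb6 in the immunoproteasome. The single Psmb8 spot had deposited ratios of 0.09 and 0.31 on AT-EAE arrays 1 and 2, against 0.44 and -0.27 on control arrays 1 and 2. Relative to the array medians these were 0.09 and 0.39 in AT-EAE and 0.45 and -0.27 in control, the same order of the arrays as for B2m. Psmb8 ranked 102 of 8818 genes on control array 1. Psmb9, also with 1 spot, had deposited ratios of 0.05 and 0.03 on the AT-EAE arrays and 0.18 and -0.35 on the control arrays. Relative ratios of Psmb9 were 0.04 and 0.10 in AT-EAE and 0.18 and -0.35 in control, so that it went with B2m and Psmb8 in sign but was smaller on the arrays where they were high. On control array 2 Psmb9 stood at the 9.66 percentile of genes, with Psmb8 at 14.8 and B2m at 16.8.

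Psme1 encodes the alpha subunit of the PA28 activator, which opens the proteasome core and is induced by interferon gamma. Its 3 spots had deposited ratios of -0.12, 0.19 and -0.30 on AT-EAE array 1, and on array 2 of AT-EAE they had 0.11, 0.21 and 0.26. They had 0.04, 0.24 and 0.43 on control array 1 and -0.03, -0.04 and 0.30 on control array 2. The spots agreed in side on AT-EAE array 2 and control array 1 and lay on both sides on the other arrays. The relative ratio of Psme1 was -0.08 ± 0.25 and 0.27 ± 0.08 on AT-EAE arrays 1 and 2, and 0.24 ± 0.19 and 0.07 ± 0.19 on control arrays 1 and 2 (SD over 3 spots each). On control array 2 the median over spots gave -0.04.

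Tap1 and Tap2 encode the subunits of the peptide transporter. Tap1 had deposited ratios of 0.09 and 0.29 on AT-EAE arrays 1 and 2 and 0.08 on control array 1, or 0.08, 0.36 and 0.09 relative to the medians. Tap2 had 0.20 and 0.08 on the AT-EAE arrays and 0.04 and 0.16 on the control arrays, or 0.19 and 0.16 in AT-EAE and 0.05 and 0.16 in control relative to the medians. Of the members with 4 values, Tap2 had the smallest range of signed ratios over the arrays, 0.15. The median range of all genes was 0.41 and that of B2m was 0.82. Such a range depends on the numerator channel of each array, which is not known, and so does not show steadiness. Each Tap1 and Tap2 value rests on 1 spot and is within the standard deviation between spots of a gene on AT-EAE array 1 and both control arrays.

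Tapbp encodes tapasin, which bridges TAP and the class I heavy chain and edits the bound peptide. Its single spot had a deposited ratio of 0.12 on AT-EAE array 1, against -0.33 on control array 1 and 0.51 on control array 2. On both control arrays Tapbp therefore lay on the opposite side of the array median from B2m, Psmb8 and Psmb9, at -0.32 and 0.51. On control array 2 it ranked 100 of 8187 genes.

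Calr encodes calreticulin, a calcium-binding chaperone of the endoplasmic reticulum that serves many glycoproteins besides class I. Its measured spot had deposited ratios of -0.52 and 0.18 on AT-EAE arrays 1 and 2, against 0.11 and -0.04 on control arrays 1 and 2. The low value, -0.53 relative to the median, was at the 2.55 percentile of genes on AT-EAE array 1, where the other 7 genes lay between -0.08 and 0.19.

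**Figure D2:**
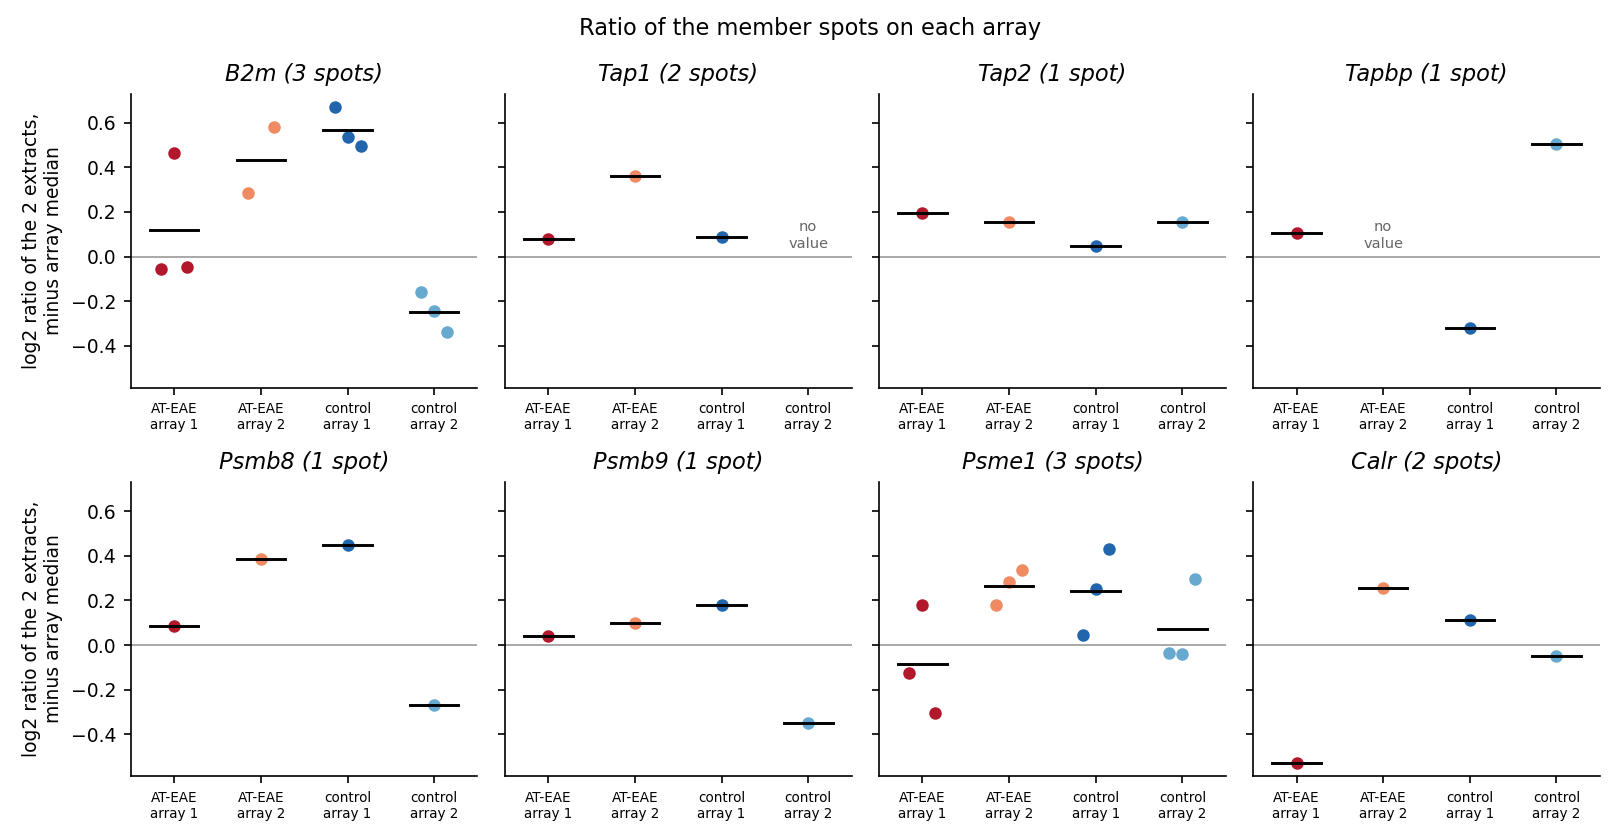
Log2 ratio of the 2 extracts minus the array median (y axis) for each spot of the 8 members on AT-EAE arrays 1 and 2 and control arrays 1 and 2 (x axis), with 1 point per spot and a black bar at the mean of the spots. B2m, Psmb8 and Psmb9 have their highest mean on control array 1 and their lowest on control array 2, Tapbp runs the other way on these arrays, and Calr is lowest on AT-EAE array 1.

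The distance of the genes from the median of their array was counted on each array. A distance of at least 1.25-fold, or 0.32 in log2 units, was reached by 1 of 8 genes on AT-EAE array 1 (Calr), where 11.0% of all genes reached it. On AT-EAE array 2 it was reached by 3 of 7 (B2m, Tap1 and Psmb8), where 32.9% of all genes did so. On the control arrays it was reached by 2 of 8 (B2m and Psmb8) on array 1 and 2 of 7 (Tapbp and Psmb9) on array 2, against 10.7% and 18.2% of all genes. Tapbp on control array 1, at -0.3218, fell just short of the limit of 0.3219. With so few genes, these counts cannot be set apart from the shares over all genes. The median relative ratio of the members was 0.08 and 0.27 on AT-EAE arrays 1 and 2 and 0.15 and -0.05 on control arrays 1 and 2, against 0 over all genes. Above the array median lay 6 of 8 and 7 of 7 genes on the AT-EAE arrays and 7 of 8 and 3 of 7 on the control arrays. The median on control array 2 turned on single genes, at 0.01 without B2m and -0.15 without Tapbp, and was -0.20 over spots with values on all 4 arrays.

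**Figure D3:**
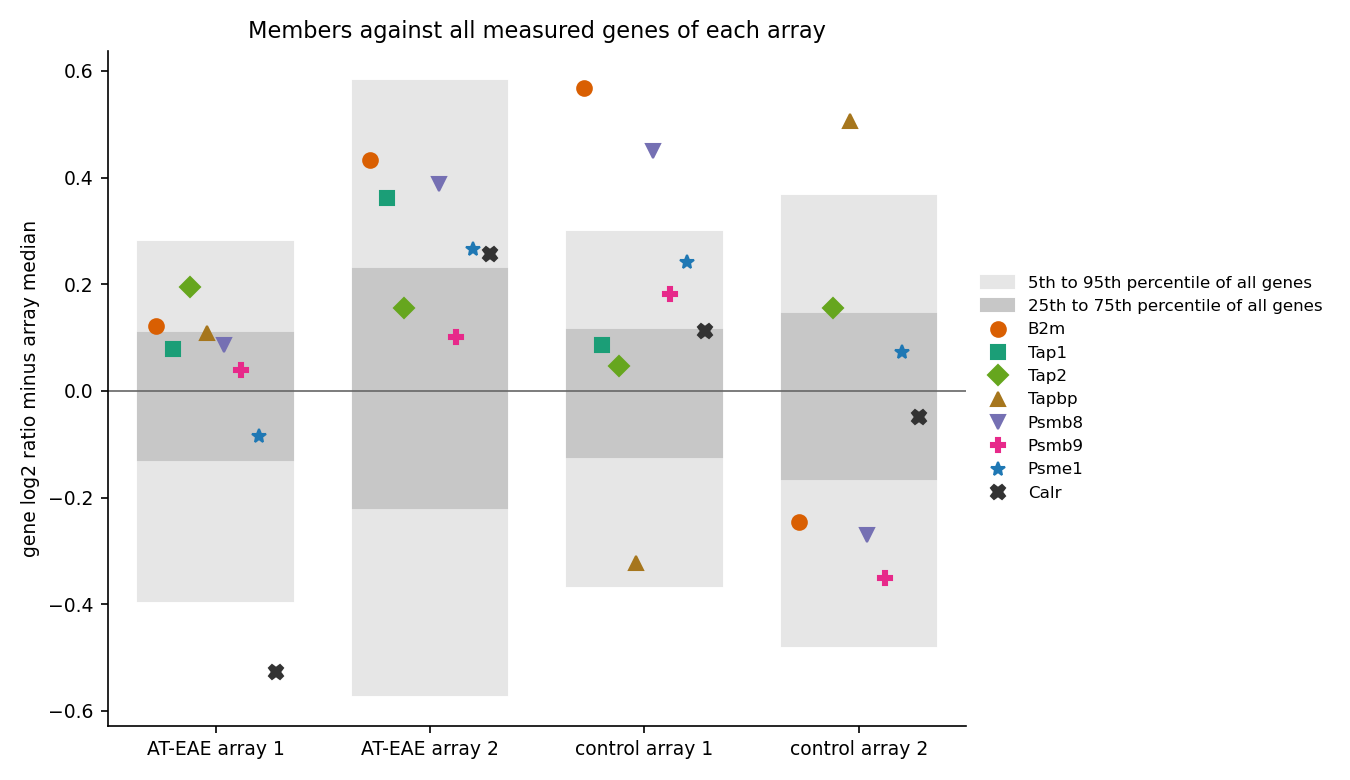
Relative log2 ratio of each member (symbols) on the 4 arrays, over grey boxes that span the 25th to 75th and the 5th to 95th percentile of all measured genes. B2m at 0.57 and Psmb8 at 0.45 lie above the outer box on control array 1, Tapbp at 0.51 above it on control array 2 and Calr at -0.53 below it on AT-EAE array 1.

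Between extracts, B2m, Psmb8 and Psmb9 lay on the same side of the array median on 4 of 4 arrays. Of 5428 other genes with values on all 4 arrays, 5.71% shared the side of B2m on every array, and of the 5 other members with such values Psmb8 and Psmb9 did while Tap2, Psme1 and Calr did not. The count depends on the small ratios of AT-EAE array 1. With the third B2m spot alone, B2m and Psmb8 shared the side on 3 of 4 arrays, and with the first spot alone on 2 of 3. Tap1 was on the side of B2m and both Psmb genes on 3 of 3 arrays, and Tap2 on the side of B2m on 3 of 4. Tap1 had no value on control array 2, where B2m and both Psmb genes lay below the median. On AT-EAE arrays 1 and 2 and control array 1, 6 of 8, 7 of 7 and 7 of 8 members lay above it. The Tap1 ratios there, 0.08, 0.36 and 0.09, rest on 1 spot. Tapbp shared the side of B2m on 1 of 3 arrays, and of Calr on 0 of 3. Shares over all genes were not taken for these counts of Tap1, Tap2 and Tapbp. The 5.71% is for 4 of 4 arrays and does not apply to them, so they are a description alone.

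Likeness was measured as the Euclidean distance between the relative ratios of genes over the 4 arrays, which does not change if the sign of a whole array is turned. Psmb8 was at a distance of 0.13 from B2m and ranked 2 among the 5428 other genes, where the median distance was 0.87. In the other direction B2m also ranked 2 for Psmb8. Psmb9 was at 0.53 from B2m and ranked 262, and Psme1 was likewise at 0.53 and ranked 261. The rank of Psmb9 was 731 without control array 1 and 624 without control array 2. Tap2 at 0.72 and Calr at 0.84 ranked 1445 and 2472. The 3 nearest genes to B2m were Prmt8 at 0.03, Psmb8 at 0.13 and Cactin at 0.15, and those nearest to Psmb8 were Cactin at 0.11, B2m at 0.13 and Prmt8 at 0.15. The rank of Psmb8 was between 2 and 10 with other summaries of spots, with B2m spot 2 or 3 alone, with ratios scaled by the spread of each array and without any 1 array. The distance itself was larger with single spots, 0.40 with B2m spot 2 alone and 0.25 with B2m spot 3 alone, and spot 1, without a value on AT-EAE array 2, was not ranked. Psmb8, Prmt8 and Cactin had 1 spot with values each.

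For Calr, the 3 nearest genes were Josd2 at 0.07, Hspa5 at 0.16 and Dbnl at 0.17. Hspa5 encodes BiP, the main Hsp70 chaperone of the endoplasmic reticulum, and had relative ratios of -0.37 and 0.25 on the AT-EAE arrays and 0.11 and -0.01 on the control arrays. Its rank was 2 over all arrays and 28 without AT-EAE array 2. Of the 5 other members with values on all 4 arrays, the nearest to Calr was Psme1, which ranked 445.

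**Figure D4:**
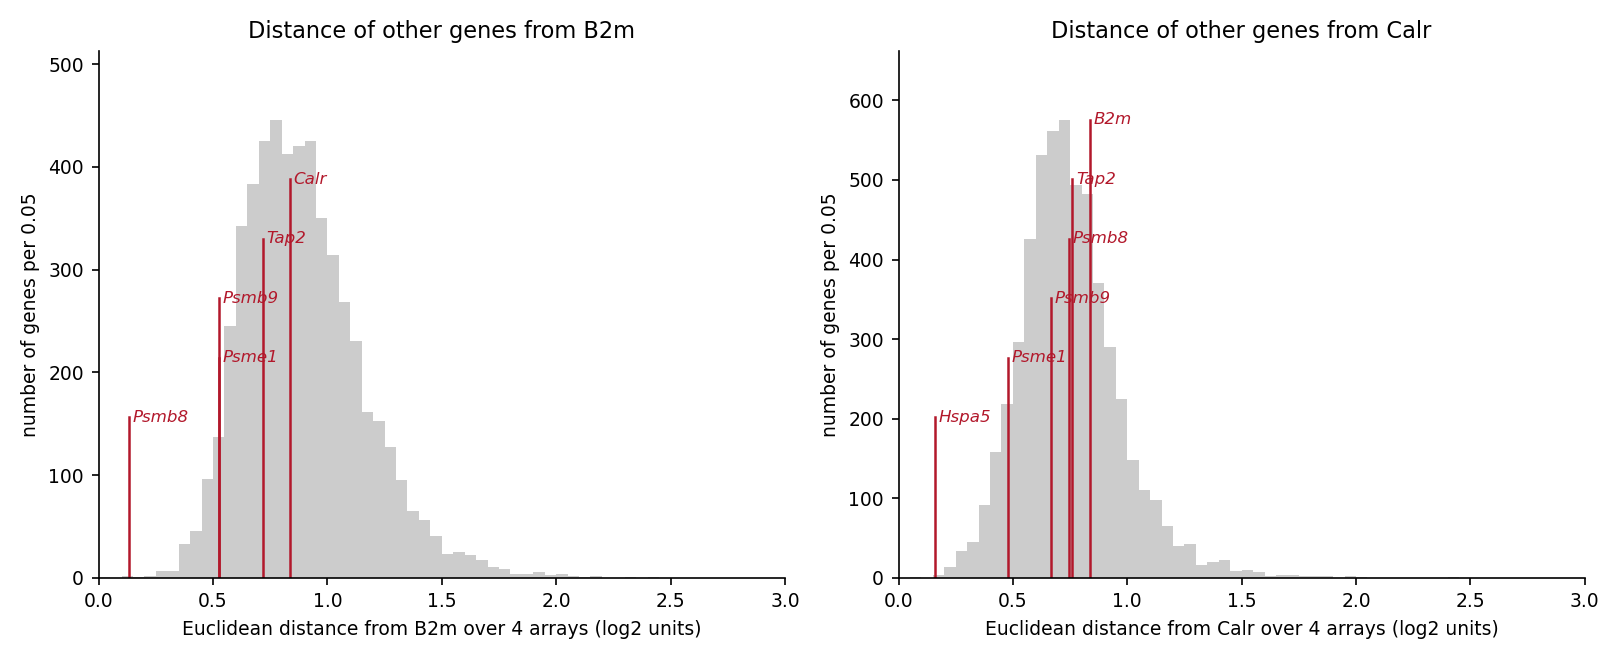
Number of genes (y axis) by Euclidean distance over 4 arrays (x axis, log2 units, bins of 0.05) from B2m on the left and from Calr on the right, with red lines at the members and at Hspa5. Psmb8 stands at 0.13 from B2m and Hspa5 at 0.16 from Calr, both left of nearly all genes, and 3 and 2 genes beyond a distance of 3 are not drawn.

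The arrays also shared part of their ratios over all genes, which these distances contain. Over 5429 genes, Pearson's r was 0.31 between AT-EAE array 2 and control array 1, the arrays on which B2m and Psmb8 were highest, and 0.33 between AT-EAE array 1 and control array 2. For the other pairs of arrays it lay between -0.0012 and 0.19. Genes are not independent and share the channels and the array, so these values are a description, and the part of the channels in this likeness was not tested. A channel effect common to all 4 arrays was looked for spot by spot with limma (mean of the arrays against 0, Benjamini-Hochberg adjustment over 10133 spots). It called 4 spots, 0.0395%, and none of the 9 member spots, whose adjusted p in limma ran from 0.483 to 0.996. The highest mean over the arrays was that of the second B2m spot, at 0.24 (SE 0.14, adjusted p = 0.483 in limma). At an unadjusted p under 0.05 limma gave 1276 spots, 12.6%, and 0 of the 9 member spots. With 9 member spots, 0 cannot be set apart from these shares. The 12.6% is above the threshold of 0.05 itself, so the few adjusted calls are not read as absence of a channel effect. More spots were called without any 1 array, but such a fit leaves 1 array in a group and is not read for the members.

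Other genes of the pathway were sparse on these arrays. Of 28 listed genes for class I chains, class I-like chains and loading factors besides the members, 6 had spots assigned to 1 gene, and 4 had values on all arrays. Cd1d1, a class I-like chain that presents lipids, was at 0.36 and -0.12 on AT-EAE arrays 1 and 2 and 0.11 and -0.07 on control arrays 1 and 2, relative to the medians. Fcgrt, the neonatal Fc receptor chain that pairs with beta-2 microglobulin, was at 0.13 and -0.28 in AT-EAE and -0.32 and 0.28 in control. Fcgrt was thus opposite in side to B2m on 3 of the arrays, as Tapbp was on both control arrays. The chaperone calnexin (Canx) was at -0.22 and 0.22 in AT-EAE and 0.26 and -0.16 in control. Psme3, a nuclear proteasome activator, was below the median on every array, between -0.23 and -0.02. Hfe had a value on control array 1 alone, 0.21, and the H2-Q1 spot had none. None of the 4 genes with all values was on the side of B2m on every array. Among all genes 5.71% were, and 4 genes are too few to set against that share.

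Of the constitutive proteasome, all 31 listed subunits had spots, and 25 of 31 and 21 of 26 measured genes lay above the median on AT-EAE arrays 1 and 2, with medians of 0.10 and 0.29. On control arrays 1 and 2, 15 of 31 and 23 of 31 lay above it, with medians of -0.02 and 0.06. Psmb5, the catalytic subunit that Psmb8 replaces, was at 0.10 and 0.27 in AT-EAE and -0.08 and 0.54 in control. Its value on control array 1 is well inside the standard deviation between spots of a gene on that array, 0.24. The 1 of 26 subunits with all values that shared the side of B2m throughout was the ATPase gene Psmc4, at 0.13 and 0.22 in AT-EAE and 0.17 and -0.82 in control. Of all genes, 5.71% shared the side of B2m on every array, and 1 of 26 subunits cannot be set apart from that. No test of the difference between the lists was made.

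The interferon response list had its median on the side of B2m on each array, though on AT-EAE array 1 it was close to evenly split. Above the median lay 10 of 18 and 15 of 17 measured genes on AT-EAE arrays 1 and 2, at list medians of 0.02 and 0.36, and 9 of 15 and 5 of 16 on control arrays 1 and 2, at 0.13 and -0.20. The guanylate-binding protein gene Gbp2 was at -0.24 and 0.31 in AT-EAE and 0.76 and -0.39 in control. Gbp7, of the same family, was at 0.25 and 0.31 in AT-EAE and 0.41 and -0.21 in control, on the side of B2m throughout. Ifngr1, the ligand-binding chain of the interferon gamma receptor, was at 0.48 and -0.07 in AT-EAE and 0.13 and 0.34 in control, opposite to B2m on AT-EAE array 2 and control array 2. In this list 2 of 14 genes with all values, Gbp7 and Socs3, shared the side of B2m on every array. Over all genes that share was 5.71%, and the list is too short to set against it.

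Most chaperones of the endoplasmic reticulum lay, like Calr, on the low side on AT-EAE array 1. There 11 of 14 were below the median, at a list median of -0.21, the lowest being Hsp90b1 (GRP94) at -0.90. On AT-EAE array 2, 8 of 13 lay above it, at 0.06. On the control arrays 8 of 15 and 3 of 15 lay above it, at 0.01 and -0.11.

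**Figure D5:**
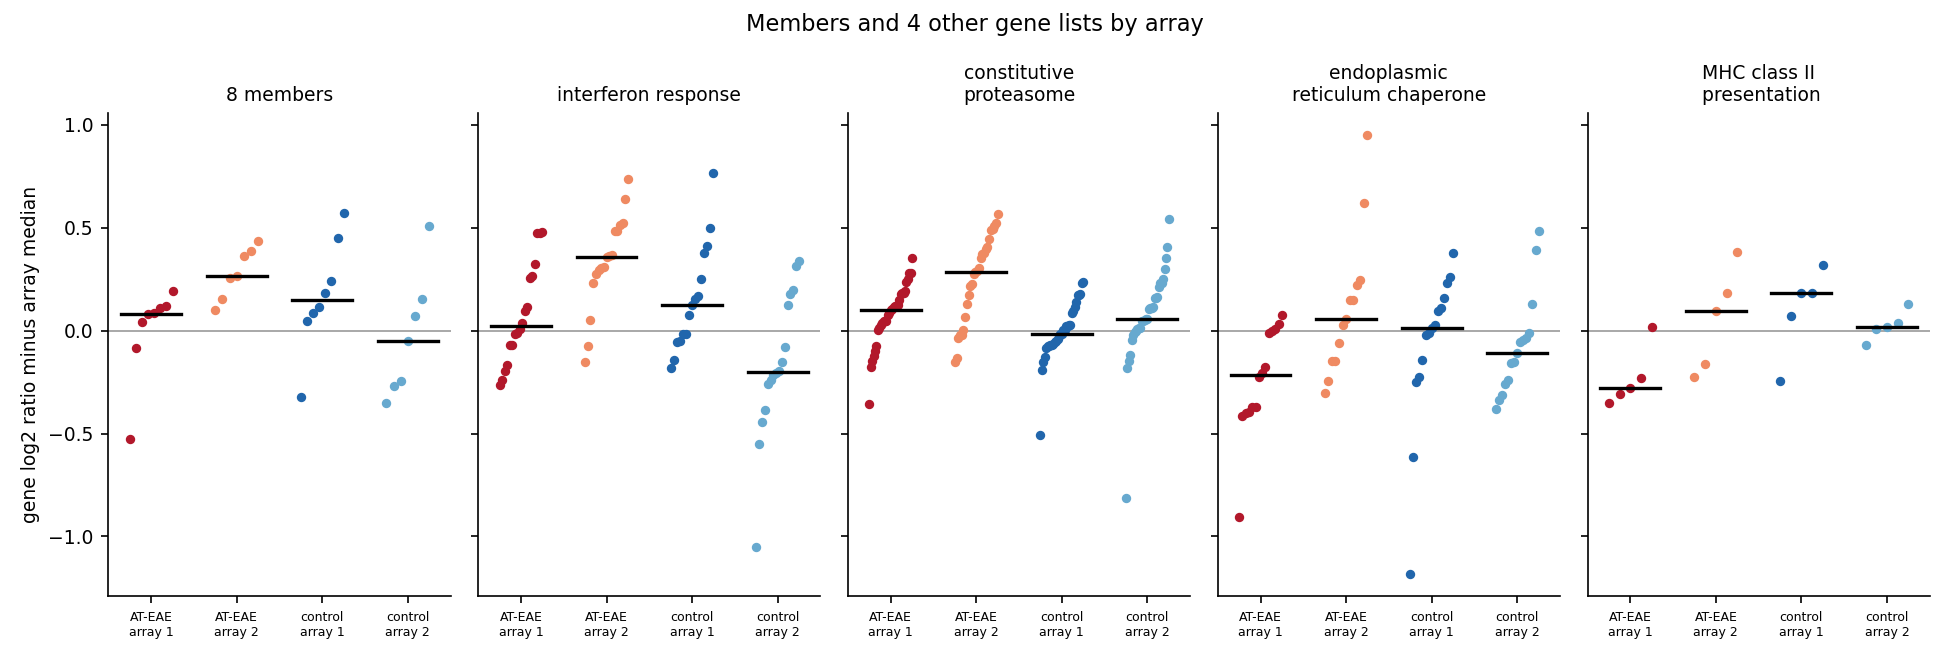
Relative log2 ratio of each gene (points) on the 4 arrays for the 8 members and 4 other lists, with a black bar at the list median. On AT-EAE array 2 the medians are 0.27 for the members, 0.36 for interferon response and 0.29 for the constitutive proteasome, and on AT-EAE array 1 the chaperone list lies at -0.21 with Calr at -0.53 among the members.

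No cell type marker gene with values on all arrays was on the side of B2m on each of them. Over all genes that share was 5.71%. The marker lists held at most 8 such genes each, too few to set against it. Microglia and macrophage markers lay below the median for 10 of 11 genes on AT-EAE array 1 (list median -0.24) and were at 0.02 on AT-EAE array 2, -0.01 on control array 1 and 0.01 on control array 2. MHC class II genes were at -0.28 and 0.09 in AT-EAE and 0.18 and 0.01 in control. Endothelial markers were at 0.09 and 0.19 in AT-EAE and 0.05 and 0.02 in control, on at most 4 genes. Astrocyte markers were at -0.05 and 0.21 in AT-EAE and 0.09 and 0.07 in control, on at most 5 genes. Neuron markers were at -0.04 and -0.08 in AT-EAE and 0.15 and 0.03 in control, on at most 5 genes. The myelin genes Mbp and Cnp together were at -0.39 and 0.02 in AT-EAE and 0.14 and -0.14 in control, and Mbp was on the side of B2m on AT-EAE array 2 and both control arrays. Red blood cell genes were at -0.03 and -0.81 in AT-EAE and 0.47 and 0.26 in control, on at most 3 genes. The T cell marker Cd247 was at 0.27 and -0.03 in AT-EAE and 0.04 and 0.12 in control. The part of cell composition in the members' ratios was not tested.

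The size of the ratios, without regard to sign, was lower in AT-EAE for B2m, Psmb8 and Psmb9 and higher in AT-EAE for Calr, Tap2 and Psme1, none of it tested. Averaged over the arrays of a group, the absolute relative ratio of B2m was 0.28 in AT-EAE and 0.41 in control, that of Psmb8 0.24 and 0.36, and that of Psmb9 0.07 and 0.27. Calr showed 0.39 in AT-EAE and 0.08 in control, Tap2 0.17 and 0.10, and Psme1 0.18 and 0.16. Every difference but that of Calr was smaller than the standard deviation between spots of a gene on any array. The Calr value in AT-EAE rests on 1 spot, at -0.53 on array 1 and 0.26 on array 2. The median over these 6 genes was 0.21 in AT-EAE and 0.21 in control, against 0.18 and 0.14 over all genes with 4 values. For the members the difference, -0.01, turned to 0.05 without AT-EAE array 1. The arrays differ in spread, and with each ratio divided by the spread of its array the difference was -0.26 in units of that spread. With 2 arrays against 2, an exact permutation test cannot give a p below 0.333, so none was run.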

How the data were processed

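Per the labels, the authors normalized the green and red signals and compared them slide by slide. The deposited values were read as log2 ratios of these signals because they were signed and centred near 0. The sources used here do not give the background correction, spot filter, normalization method or software. Clone annotation of the platform assigned 18511 spots to 1 gene, 937 to several and 9256 to none, and symbols were updated by gene identifier to the GRCm38.p6 table for 18267 spots and kept for 244. Spots of a gene were averaged per array and the median over genes subtracted. The planned test of level between AT-EAE and control was not run, since the ratios hold no such level. The shared channel effect was fitted with limma 3.58.1 (R 4.3.3) on spots with 4 values, with groups averaged equally. The fit was tried on simulated arrays drawn independently, with some spots shifted by 1. That shift is larger than the mean of any member spot, and the real arrays were correlated. The simulation therefore does not show what the fit can find at the sizes seen here. Tables and plots were made in Python 3.11.15 with pandas 2.3.3, numpy 2.4.6, matplotlib 3.10.9 and scipy 1.17.1. Precision is limited by having 2 arrays in each group. Columns of no sample numbered 0. Named were every member, all measured genes of the class I list, the highest or lowest gene of other lists, counts of at most 5 genes and the 3 nearest genes of each member. The members and lists were chosen with earlier results of these data known. In the alternatives the summary of spots, the centring, the set of spots or genes and the arrays were varied. Same-numbered arrays of the groups held different animals, so the number pairs nothing.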

Additional observations from a re-analysis of the deposited data

How the results depend on the processing

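Of 114 values of single members under other spot summaries, spot sets and centrings, 112 kept their direction and moved by less than the standard deviation between spots, while B2m on AT-EAE array 1 (-0.048) and Psme1 on control array 2 (-0.039) reversed with the median over spots. Most of these values could hardly move. The ratios as deposited and the other centring, 30 values each, differ by a constant of the array alone. Only B2m and Psme1 had more than 1 spot with a value, so the other members could change by such a constant only. The count of 112 is therefore no measure of how steady the ratios are. Counted by gene, 100% and 87.5% of members had a value on AT-EAE arrays 1 and 2 and 100% and 87.5% on control arrays 1 and 2, beside 72.4%, 54.9%, 86.2% and 80.1% of all genes in the same order. The members' median on control array 2 reversed to 0.012 without B2m, and it was -0.087 without Calr, -0.15 without Tapbp and -0.20 on spots with values on all 4 arrays. That check and those of single B2m spots and ranks were chosen after seeing the data. The rank of Psmb8 near B2m was 5 with the median over spots, 10 with B2m spot 2 alone, 5 with B2m spot 3 alone, and 3 to 7 without 1 array. That of Psmb9 was 435 with B2m spot 3 alone and 240 to 731 without 1 array. That of Hspa5 near Calr was 7 after scaling by the spread of the array and 3 to 28 without 1 array. The AT-EAE minus control difference in absolute ratio was 0.016 with the median over spots and between -0.11 and 0.050 without 1 array. Spots called by limma as shared by all arrays numbered 8 with values on at least 1 array of each group, 49 with the array number as a replicate block and 41 to 749 without 1 array, with 0 member spots called in any of these fits. The causes of these changes were not tested. Signal over background, which limits weak spots, was not analysed here.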

Other observations

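The remaining members had as nearest genes Ctbp2 at a distance of 0.06, Dis3 at 0.06 and Mrpl28 at 0.07 for Tap2, and Samd8 at 0.10, Slc28a2 at 0.12 and Dnmt3a at 0.13 for Psmb9. For Psme1 they were Siae at 0.05, Msi2 at 0.05 and Mrps10 at 0.06. None of these 9 genes was on the fixed lists of presentation, proteasome or interferon genes, and genes with small ratios have many near neighbours.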
